A study of Mus musculus with 24 samples.

Results

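The kidneys of female TgUmodC147W mice at 2 months of age were compared with those of age- and sex-matched TgUmodwt mice. The comparison used 8 of the 24 arrays in the series, 4 arrays of each line, selected by genotype, sex and age as labelled. TgUmodC147W mice carry a transgene for uromodulin with the C147W change, and TgUmodwt mice carry the wild type transgene, so both groups are transgenic and the control also expresses added uromodulin. In both lines the HA-tagged transgene was driven by a fragment of the mouse Umod promoter on the FVB background, and the endogenous Umod gene was retained. Each array held total RNA from the whole kidney of 1 mouse, measured on Illumina MouseWG-6 v2.0 BeadChips. The other 16 arrays came from females and males of 1 month, 4 for each line and sex.

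Uromodulin is a GPI-anchored glycoprotein made in the kidney by the thick ascending limb, the segment of Henle's loop that takes up salt without water, and shed into the urine. Its many cysteines are paired in the endoplasmic reticulum (ER), and mutations that alter a cysteine delay folding and hold the protein there, which in patients leads to autosomal dominant tubulointerstitial kidney disease. Misfolded protein in the ER can raise chaperones through the IRE1 and ATF6 branches of the unfolded protein response, while the kinase PERK acts through the transcription factor ATF4 on amino acid synthesis and transport genes. Injured tubules, infiltrating macrophages and matrix-producing fibroblasts are the other cell states known in this disease.

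Signals are given below as log2 of the background-corrected, quantile-normalized intensity, and a difference of 1 is a 2-fold change. Differences are TgUmodC147W minus TgUmodwt, with the standard error (SE) of the limma fit over 4 mice a group. A gene was called raised or lowered at a Benjamini-Hochberg adjusted p under 0.05 over all 18302 probes detected on at least 1 of the 8 arrays. The 8 arrays had median intensities of 139.7 to 176.6 and detected 35.8% to 37.6% of probes. The groups separated on the first principal component, which held 40.9% of the variance, with TgUmodwt arrays at -21.0 to -13.5 and TgUmodC147W arrays at 15.3 to 23.0. Xist, which is transcribed in female cells, read 12.14 to 12.72 on all 8 arrays. In whole kidney, fewer cells of a type and less RNA per cell cannot be told apart.

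Counting a gene by any of its probes, 582 genes were raised (5.91% of 9852) and 403 were lowered (4.09%). The balance between the directions moved with scaling: with arrays brought to a common median in place of quantile normalization, 433 genes were raised and 496 lowered, and the median difference of all probes went from -0.01 to -0.07. Changes over 2-fold were mostly rises, with 93 genes raised (0.944%) and 30 lowered (0.305%). For the gene lists below each gene was represented by its brightest detected probe, by which 531 genes were raised (5.39%) and 303 lowered (3.08%), 834 in either direction (8.47%), and the median gene stood at -0.01. Of these, 372 of the 531 raised genes and 149 of the 303 lowered genes were called in the same direction in females of 1 month, a comparison with control arrays of its own, and 5 had the opposite call there. In that comparison TgUmodC147W replicate 2 read 4.85 for Xist, in the range of the male arrays. Differences and counts for females of 1 month include this array unless stated.

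**Figure D1:**
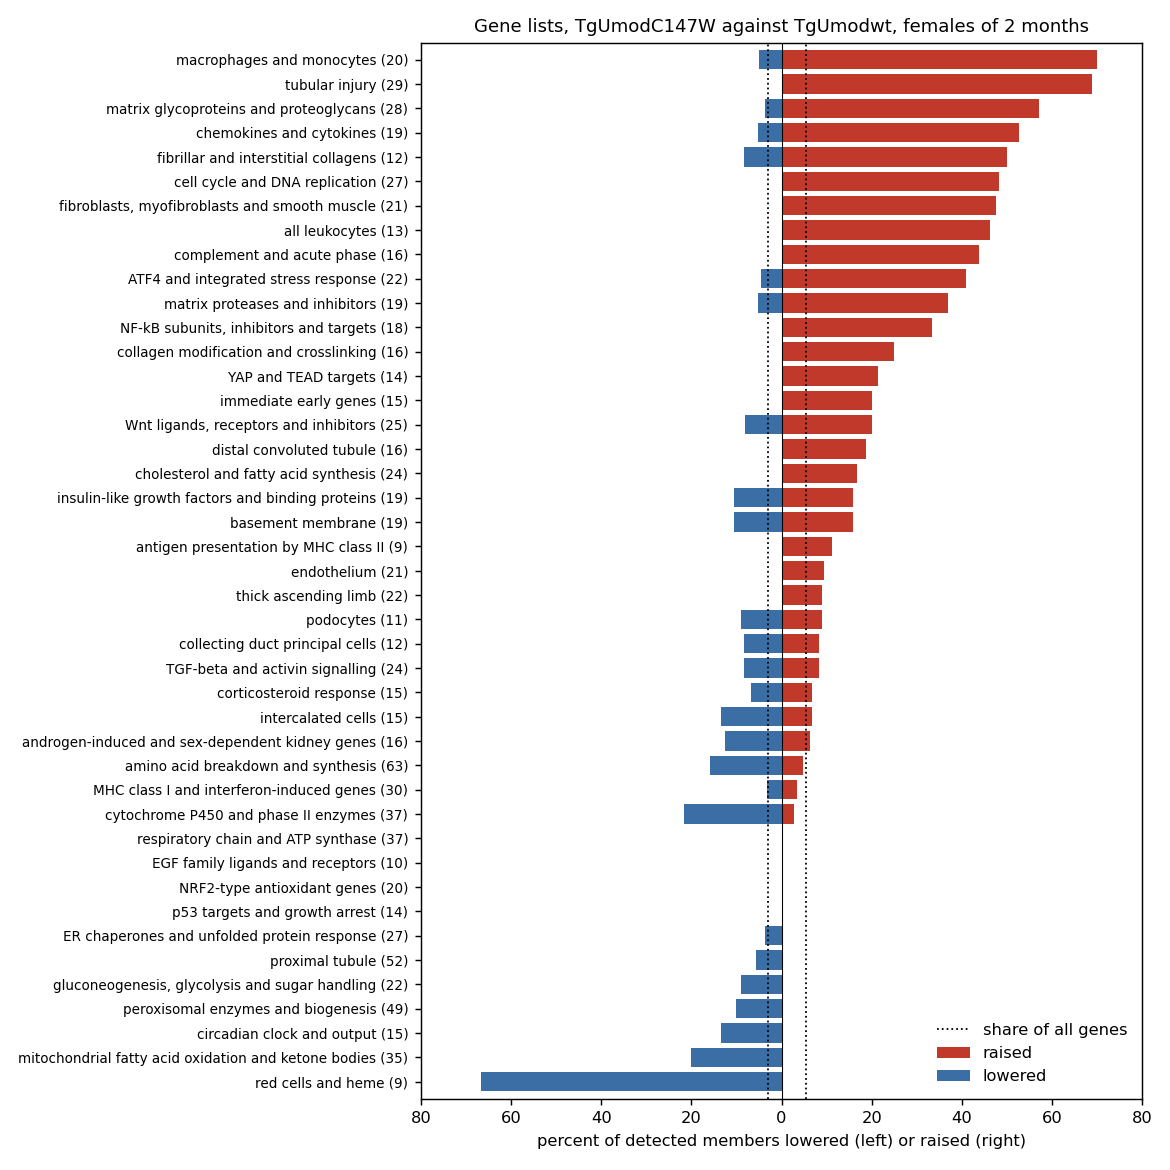
Percent of the detected members of each gene list raised (right, red) or lowered (left, blue) in TgUmodC147W kidneys at 2 months, with the number of detected members in parentheses and dotted lines at the shares of all genes, 5.39% and 3.08%. Lists with at least 9 detected members are drawn. The macrophage, tubular injury and matrix glycoprotein lists had the highest raised shares, and the red cell list had the highest lowered share, 6 of 9.

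Umod itself did not pass the test. It read 15.66, 15.92, 15.76 and 15.87 in TgUmodwt replicates 1 to 4 and 15.91, 15.95, 15.94 and 15.87 in TgUmodC147W replicates 1 to 4, so the groups overlapped (0.11 ± 0.09, adjusted p = 0.501). The probes do not separate transgene from endogenous transcripts, and the highest normalized value on these arrays was 16.02, which leaves little room above these readings. A second Umod probe differed by 0.26 ± 0.08 (adjusted p = 0.0834). Slc12a1, the sodium-potassium-chloride cotransporter of the thick ascending limb, differed by 0.11 ± 0.09 (adjusted p = 0.504) by its brightest probe. Its dimmer probes also differed upward without passing the test, by up to 0.40 ± 0.13 (adjusted p = 0.098). Of 22 detected genes on the thick ascending limb list, 2 were raised and none was lowered, with a median of 0.11. The mean level of the list was 12.06 to 12.09 on TgUmodwt arrays and 12.17 to 12.23 on TgUmodC147W arrays. The 2 raised genes were Ptger3, a prostaglandin E2 receptor (0.48 ± 0.10, adjusted p = 0.0169), and Cldn19, a tight junction claudin (0.45 ± 0.12, adjusted p = 0.0381). Ptger3 missed the threshold without TgUmodC147W replicate 3, and so did Cldn19 without TgUmodwt replicate 1, 2 or 3 or TgUmodC147W replicate 1, 3 or 4. Cldn16, the partner of Cldn19 in the magnesium pathway, stood just outside the threshold (0.59 ± 0.16, adjusted p = 0.052).

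Markers of the other segments held at most 3 calls in a direction at 2 months, where 5.39% of all genes were raised and 3.08% lowered. The brightest proximal tubule genes, the phosphate transporter Slc34a1 (0.00 ± 0.08, adjusted p = 0.994) and the endocytic receptor Lrp2 (-0.04 ± 0.10, adjusted p = 0.855), did not pass the test, and Slc34a1 too was close to the highest value. Of 52 detected proximal tubule genes 3 were lowered (5.77%) and none was raised. In females of 1 month 19 were lowered (7.71% of all genes were) and 3 were raised (9.84%). At 2 months 16 detected distal convoluted tubule genes held 3 rises (18.75%), or 1 or 2 when any single array was left out. The 12 principal cell genes held 1 rise and 1 fall (8.33% each). The 15 intercalated cell genes held 1 rise (6.67%) and 2 falls (13.3%), with none lowered without TgUmodwt replicate 3. Aqp4, the basolateral water channel of principal cells, was the principal cell gene that fell (-0.91 ± 0.18, adjusted p = 0.0124), while Aqp2, the apical water channel, differed by 0.23 ± 0.20 (adjusted p = 0.566).

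Tubular injury genes rose. Of 29 detected members, 20 were raised and none was lowered, with a median of 0.75 (0.71 with undetected groups set to the detection limit). Lcn2, encoding lipocalin 2 that is secreted by injured distal tubules, read 6.66, 6.54, 6.61 and 6.55 in TgUmodwt replicates 1 to 4 and 10.87, 10.67, 11.35 and 10.95 in TgUmodC147W replicates 1 to 4. All TgUmodC147W arrays lay about 4 units above all TgUmodwt arrays, a 20.7-fold difference (4.37 ± 0.13, adjusted p = 3.79e-08). Lcn2 was detected on 1 of the 4 TgUmodwt arrays. Havcr1, encoding Kim-1 of injured proximal tubules, read 7.63, 6.90, 6.90 and 7.22 in TgUmodwt and 8.95, 9.17, 9.17 and 8.91 in TgUmodC147W, a 3.71-fold rise (1.89 ± 0.16, adjusted p = 6.2e-05). The groups did not overlap for either gene.

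Where a gene was detected on no array of a group, the fold is a lower bound. It was taken against, on each array, the higher of the probe's own signal and the lowest detected signal, which lay between 6.46 and 6.67. By this bound Timp1, an inhibitor of matrix metalloproteinases, was at least 4.58-fold higher in TgUmodC147W, where it read 8.41, 8.75, 9.07 and 8.91 against 5.75, 5.22, 5.53 and 5.76 in TgUmodwt (adjusted p = 1.4e-06). Cd44, a hyaluronan receptor of injured epithelium and leukocytes, was at least 2.43-fold higher (adjusted p = 4.01e-05). Ankrd1, a YAP target, rose 4.63-fold (2.21 ± 0.19, adjusted p = 8.09e-05). Sox9, a transcription factor of regenerating tubules, rose by 1.11 ± 0.10 (adjusted p = 8.09e-05) and Krt18, an epithelial keratin, by 0.79 ± 0.16 (adjusted p = 0.0124). Cdkn1a, the p53-induced cell cycle inhibitor, differed by 0.14 ± 0.14 (adjusted p = 0.623). None of 14 detected p53 targets and none of 20 detected NRF2-type antioxidant genes passed the test in either direction.

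**Figure D2:**
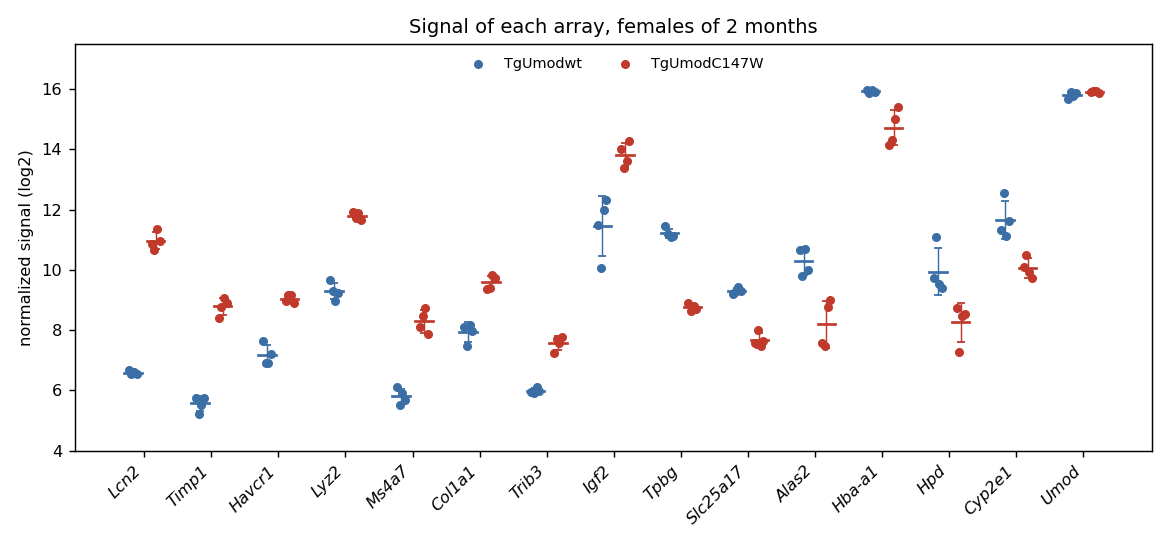
Log2 normalized signal of 15 genes on each of the 8 arrays, with TgUmodwt in blue and TgUmodC147W in red, points for single mice, horizontal bars for group means and whiskers for 1 SD (n = 4). The groups are separate for every gene drawn except Umod.

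Macrophage genes rose as a group. Of 20 detected members of the macrophage and monocyte list, 14 were raised and 1 was lowered, with a median of 0.84 (0.61 with undetected groups at the detection limit). The mean level of the list was 7.57 to 7.85 on TgUmodwt arrays and 8.49 to 8.70 on TgUmodC147W arrays. Of the 20 members 6 were detected on no array of 1 group, and there entered the mean and the count at signals not above background. Those 6 passed the detection filter through the other group alone, which can widen the separation. Lyz2, the lysozyme of macrophages, read 9.65, 9.30, 8.98 and 9.25 in TgUmodwt and 11.91, 11.73, 11.90 and 11.67 in TgUmodC147W, with no overlap (5.68-fold, 2.51 ± 0.13, adjusted p = 3.08e-06). Lyz1, a near-identical paralog whose probe may also bind Lyz2 transcripts, rose by 2.20 ± 0.10 (adjusted p = 8.64e-07). Ms4a7, a membrane protein of mature macrophages, was at least 3.26-fold higher (adjusted p = 3.44e-05).

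Cd14, the co-receptor for bacterial lipopolysaccharide, read 8.54, 8.49, 8.41 and 8.53 in TgUmodwt and 9.73, 9.81, 10.16 and 10.20 in TgUmodC147W. The 2.79-fold rise was far larger than the spread within either group (1.48 ± 0.12, adjusted p = 4.69e-05). Other macrophage genes, named after their values were seen, gave a lower bound, a difference short of the threshold and a fall. Adgre1, an adhesion receptor of macrophages, was at least 1.53-fold higher and was detected on 3 of 4 TgUmodC147W arrays (adjusted p = 0.009), a call lost without TgUmodC147W replicate 1, 2 or 3. Csf1r, the receptor for macrophage colony-stimulating factor, differed by 0.45 ± 0.13 (adjusted p = 0.0683). Folr2, a folate receptor of resident macrophages, was the lowered member (adjusted p = 0.0322). Folr2 overlapped between the groups and was detected on 2 TgUmodwt arrays and on no TgUmodC147W array, so no fold is given. Its call was lost without 6 of the 8 arrays in turn (all but TgUmodwt replicate 4 and TgUmodC147W replicate 3).

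The 3 chains of complement C1q, which macrophages make, rose in step. C1qa rose by 1.03 ± 0.13 (adjusted p = 0.000813), C1qb by 1.10 ± 0.15 (adjusted p = 0.00197) and C1qc by 1.08 ± 0.13 (adjusted p = 0.000618). Fcrls, an Fc receptor-like protein of microglia and macrophages, was at least 1.72-fold higher (adjusted p = 0.000143). Among genes of all leukocytes 6 of 13 detected were raised and none was lowered, including Coro1a, an actin regulator (0.82 ± 0.09, adjusted p = 0.000295), and Laptm5, a lysosomal protein (0.75 ± 0.10, adjusted p = 0.00186). Lymphocyte genes were little detected, with 3 of 13 T cell genes and 1 of 8 B cell and plasma cell genes that had a named probe. Of these 4 genes 1 was raised, Thy1 of the T cell list, which is also on the fibroblast list. Neutrophil list genes were also little detected, with 4 of 14 that had a named probe. Of these 3 were raised and 1 did not pass the test. The raised genes include Lcn2, which tubules also make, so a change in neutrophils cannot be read from this count.

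Of 19 detected chemokine and cytokine genes 10 were raised and 1 was lowered, with a median of 0.54. Attractants of monocytes, T cells and neutrophils were among the raised genes. Ccl12 was at least 2.19-fold higher (adjusted p = 0.00119) and Ccl8 at least 1.54-fold higher (adjusted p = 6.2e-05). Ccl5 rose by 1.21 ± 0.15 (adjusted p = 0.00112) and Cxcl1, a neutrophil attractant, by 1.20 ± 0.12 (adjusted p = 0.000263), and each was detected on 1 TgUmodwt array. The lowered member was Cxcl9, an interferon gamma-induced ligand of CXCR3. It read 8.19, 7.73, 8.04 and 8.24 in TgUmodwt and 6.70, 6.79, 7.08 and 6.78 in TgUmodC147W, a 2.32-fold fall without overlap (-1.21 ± 0.13, adjusted p = 0.000295). The part of the higher macrophage list level in the chemokine and complement rises was not tested.

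Genes induced by interferon did not rise with the inflammatory genes. On the list of MHC class I and interferon-induced genes 1 of 30 detected members was raised and 1 was lowered, with a median of 0.07. The raised gene was Ifitm1, which restricts virus entry (0.71 ± 0.10, adjusted p = 0.00247), and the lowered gene was Igtp, an interferon gamma-induced GTPase (-0.92 ± 0.19, adjusted p = 0.0158), whose groups overlapped. Gbp2b, a guanylate-binding protein of the same response, read 6.99, 7.10, 5.99 and 7.33 in TgUmodwt and 5.12, 5.42, 5.37 and 5.12 in TgUmodC147W. It was detected on 3 TgUmodwt arrays and no TgUmodC147W array and was at least 1.26-fold lower (adjusted p = 0.00292). Irf1, a transcription factor of this response (0.02 ± 0.12, adjusted p = 0.948), and Cxcl10, another CXCR3 ligand (0.02 ± 0.14, adjusted p = 0.953), did not pass the test.

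Of 18 detected NF-kB subunits, inhibitors and targets 6 were raised and none was lowered, with a median of 0.26. Vcam1 and Icam1, adhesion molecules for leukocytes, rose by 0.91 ± 0.09 (adjusted p = 0.000203) and 0.78 ± 0.12 (adjusted p = 0.00304). Bcl3, a nuclear member of the IkB family, rose by 0.97 ± 0.20 (adjusted p = 0.0142). Of 16 detected complement and acute phase genes 7 were raised, and Serpina3n, a serine protease inhibitor, rose by 2.06 ± 0.13 (adjusted p = 1.11e-05).

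Many interstitial matrix genes rose. Of 28 detected matrix glycoproteins and proteoglycans 16 were raised and 1 was lowered, with a median of 0.44. Col1a1, a chain of type I collagen, read 8.11, 7.46, 8.19 and 7.99 in TgUmodwt and 9.38, 9.41, 9.82 and 9.73 in TgUmodC147W, with no overlap and a 3.13-fold rise (1.65 ± 0.16, adjusted p = 0.000206). Of 12 detected fibrillar and interstitial collagens 6 were raised and 1 was lowered, with 3 raised without TgUmodwt replicate 2 or without TgUmodC147W replicate 2 or 3. Col3a1, detected on 3 TgUmodC147W arrays and no TgUmodwt array, was at least 1.15-fold higher with overlapping signals (adjusted p = 0.0449), a call lost without TgUmodwt replicate 1, 2 or 4 or TgUmodC147W replicate 1, 2 or 3. Col6a1 stood just outside the threshold (0.42 ± 0.12, adjusted p = 0.0529).

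Genes of other matrix components were among the raised ones. Mgp, a calcification inhibitor bound to matrix, rose by 1.59 ± 0.15 (adjusted p = 0.000155), and Eln, encoding elastin, by 1.27 ± 0.12 (adjusted p = 0.000184). Mfap5, a microfibril protein, was at least 1.59-fold higher (adjusted p = 2.94e-05). Lox, the enzyme that crosslinks collagen and elastin, rose by 1.63 ± 0.17 (adjusted p = 0.000247). It was among 4 raised genes of 16 detected for collagen modification and crosslinking, and 1 of the 16 was called without TgUmodC147W replicate 3 and 2 without TgUmodwt replicate 2. Of the degrading enzymes, Mmp14, a membrane metalloproteinase, rose by 0.97 ± 0.15 (adjusted p = 0.00384) and Ctsk, cathepsin K, by 1.02 ± 0.09 (adjusted p = 8.09e-05). Ecm1 was the lowered matrix glycoprotein (-0.48 ± 0.09, adjusted p = 0.0108). Of 19 detected basement membrane genes 3 were raised and 2 lowered, with a median of 0.12, and 1 to 5 were raised with single arrays left out (1 without TgUmodwt replicate 2 or 4 or TgUmodC147W replicate 3 or 4). The netrin Ntn4 was raised on this list (0.67 ± 0.11, adjusted p = 0.00499).

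Of 21 detected genes of fibroblasts, myofibroblasts and smooth muscle 10 were raised and none was lowered, with a median of 0.40. Acta2, smooth muscle actin, rose by 0.87 ± 0.13 (adjusted p = 0.0034) and Pdgfrb, the platelet-derived growth factor receptor of pericytes, by 0.60 ± 0.10 (adjusted p = 0.00574). The TGF-beta pathway that drives these cells gave few calls, 2 raised and 2 lowered of 24 detected. Among ligands, Tgfb1 differed by 0.19 ± 0.19 (adjusted p = 0.623), whereas Inhba, the activin A subunit, passed the test (adjusted p = 0.0146). Inhba was detected on 3 TgUmodC147W arrays and no TgUmodwt array and too near the detection limit for a fold. The second raised gene was Fst, the activin-binding protein follistatin (0.97 ± 0.14, adjusted p = 0.00215).

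Both lowered genes of the pathway were Id proteins, targets of the BMP branch. Id1 read 11.31, 11.25, 11.07 and 11.19 in TgUmodwt and 10.08, 10.41, 10.20 and 10.33 in TgUmodC147W, and the groups were apart (-0.95 ± 0.10, adjusted p = 0.00026). Id3 fell by 1.02 on the log2 scale (SE 0.17, adjusted p = 0.00556).

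The ER chaperone list and the list of ATF4 and the integrated stress response differed in their raised shares. Whether the rises on the second list arose from stress in the ER was not tested. Of 27 detected ER chaperones and unfolded protein response genes none was raised and 1 was lowered, with a median of 0.00. The mean level of this list was 10.83 to 10.99 on TgUmodwt arrays and 10.83 to 11.02 on TgUmodC147W arrays. The ER chaperones Hspa5, encoding BiP (0.00 ± 0.25, adjusted p = 0.997), and Hsp90b1, encoding GRP94 (0.14 ± 0.14, adjusted p = 0.619), did not pass the test, nor did Xbp1, the target of IRE1 (-0.08 ± 0.10, adjusted p = 0.717). The lowered gene was Sel1l3 (-0.36 ± 0.09, adjusted p = 0.0419), and it lost its call when any 1 of the 8 arrays was left out. The arrays measure transcript level, not Xbp1 splicing.

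Of 22 detected genes of ATF4 and the integrated stress response 9 were raised and 1 was lowered, with a median of 0.27 (0.20 with undetected groups at the detection limit). The mean level of this list was 9.05 to 9.18 on TgUmodwt arrays and 9.51 to 9.71 on TgUmodC147W arrays. Of the 22 members 2 were detected on no array of 1 group, and there entered this mean at signals not above background. Trib3, a pseudokinase induced by ATF4, read 5.96, 5.91, 6.10 and 5.99 in TgUmodwt, where it was not detected, and 7.24, 7.69, 7.57 and 7.77 in TgUmodC147W, where it was detected on all 4 arrays. It was at least 1.97-fold higher (adjusted p = 3.44e-05).

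Asns, asparagine synthetase, read 8.87, 8.16, 8.60 and 9.17 in TgUmodwt and 10.02, 10.15, 10.44 and 10.04 in TgUmodC147W, a 2.75-fold rise without overlap (1.46 ± 0.19, adjusted p = 0.00119). Chac1, which breaks down glutathione, read 7.57, 7.45, 7.44 and 7.05 in TgUmodwt and 8.67, 8.53, 9.07 and 8.63 in TgUmodC147W, a 2.54-fold rise (1.35 ± 0.14, adjusted p = 0.000295). All TgUmodC147W arrays again lay above all TgUmodwt arrays. Atf5, a transcription factor translated under stress, rose 2.59-fold (1.38 ± 0.14, adjusted p = 0.000251). The mitochondrial enzymes Mthfd2, of folate metabolism, and Aldh18a1, of proline synthesis, rose by 1.37 ± 0.13 (adjusted p = 0.00016) and 1.23 ± 0.14 (adjusted p = 0.000377).

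The remaining raised members were Stc2, a secreted glycoprotein (0.69 ± 0.10, adjusted p = 0.00277), Atf3, a transcription factor of early stress (adjusted p = 0.0146), and Eif4ebp1, a repressor of translation (0.59 ± 0.14, adjusted p = 0.0281). Atf3 read 5.33, 5.14, 5.47 and 5.63 in TgUmodwt and 6.33, 5.74, 6.75 and 6.36 in TgUmodC147W, and was detected on 1 array in all, so no fold is given. Eif4ebp1 lost its call without TgUmodwt replicate 2, 3 or 4 or TgUmodC147W replicate 2, 3 or 4. Shmt2, a mitochondrial serine enzyme, was the lowered member (-0.43 ± 0.09, adjusted p = 0.016), a call lost without TgUmodwt replicate 2 or TgUmodC147W replicate 3. The transcripts of Atf4 itself (-0.14 ± 0.14, adjusted p = 0.607) and of Ddit3, encoding CHOP (-0.33 ± 0.15, adjusted p = 0.245), did not pass the test.

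**Figure D3:**
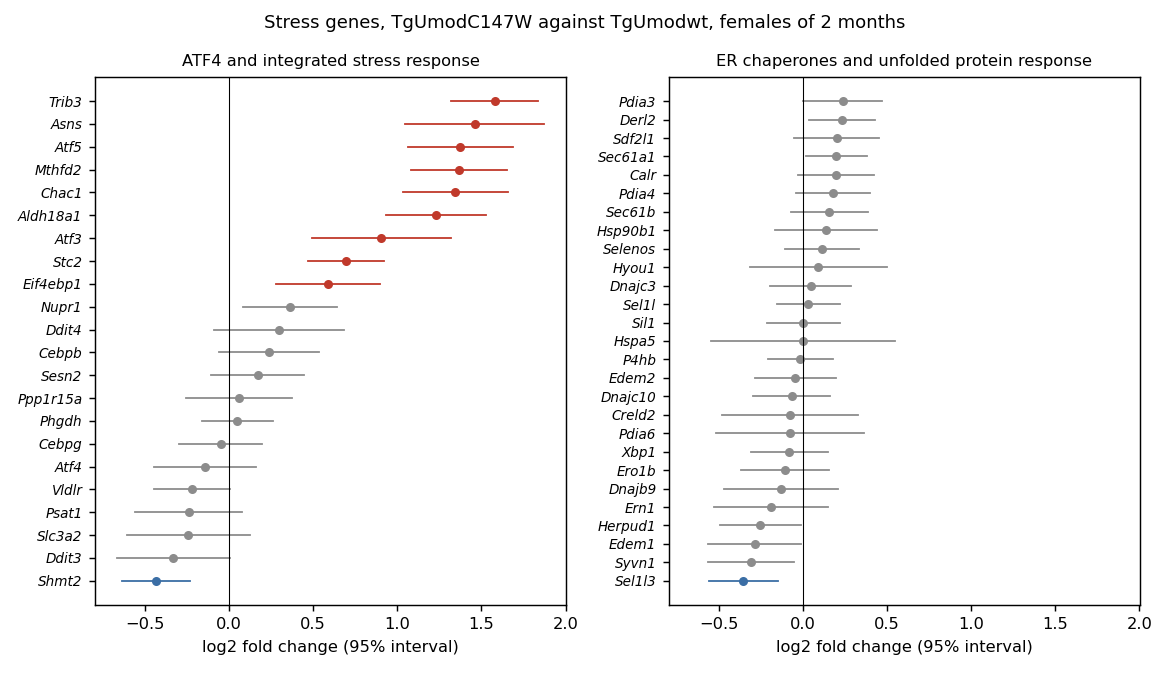
Fitted log2 fold change with its 95% interval for each detected member of the ATF4 and integrated stress response list (left) and the ER chaperone and unfolded protein response list (right), red where raised, blue where lowered and grey where the test was not passed. Of the ATF4 list 9 of 22 members were raised, and of the chaperone list none of 27. Trib3 and Atf3 were undetected in TgUmodwt and are drawn at their fitted values.

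ATF4 and its C/EBP partners bind elements of the form TGATGNAA, so the promoters of the members were searched for these letters on both strands. The promoter was taken as 250 bases before to 50 bases after the RefSeq gene start on GRCm38.p6. The motif was found in 4 of the 8 raised members that had a promoter sequence, in 6 of the 21 detected members that had one, and in 3.97% of all 32851 mouse promoters. A match describes the letters only and is not a binding site. The list was made of genes already tied to ATF4 and this response, so its share cannot be weighed against that of all promoters. The windows of the 4 raised members are shown so that the matches can be read, each as 30 bases in the direction of its gene with the motif in capitals.
Asns, chr6:7693214-7693243, minus strand: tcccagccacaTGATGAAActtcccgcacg
Trib3, chr2:152344028-152344057, minus strand: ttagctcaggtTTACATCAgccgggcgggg
Chac1, chr2:119351038-119351067, plus strand: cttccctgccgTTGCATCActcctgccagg
Atf3, chr1:191183425-191183454, minus strand: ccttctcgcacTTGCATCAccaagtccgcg
The motif reads in the direction of the gene in Asns and on the opposite strand in the other windows. It begins 23 bases before the start of Asns, 193 bases before that of Chac1, 110 bases before that of Atf3 and 14 bases after that of Trib3. The members with the motif that were not raised were Nupr1 and Vldlr. The raised Atf5, Mthfd2, Aldh18a1, Stc2 and Eif4ebp1 had no window with the motif. They include the raised member that had no promoter sequence to search.

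Of the lowered genes, 5 neighbours formed an unbroken run along chromosome 15. Slc25a17, a peroxisomal carrier, was named by the size of its change, and its neighbours were named after their values were seen. Slc25a17 read 9.21, 9.28, 9.44 and 9.29 in TgUmodwt and 7.56, 8.01, 7.46 and 7.63 in TgUmodC147W, a 3.11-fold fall (-1.64 ± 0.12, adjusted p = 3.44e-05). St13, a cochaperone of Hsp70, read 9.49, 9.48, 9.36 and 9.48 against 8.50, 9.13, 8.57 and 8.36 (-0.81 ± 0.15, adjusted p = 0.00786). In both genes TgUmodC147W replicate 2 was the highest of its group, and the groups did not overlap.

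Next in order came Xpnpep3, a mitochondrial aminopeptidase whose loss causes a cystic kidney disease in humans. It read 10.22, 10.11, 10.04 and 10.06 in TgUmodwt and 9.08, 9.09, 8.95 and 8.96 in TgUmodC147W (-1.09 ± 0.08, adjusted p = 4.01e-05). Rbx1, a RING subunit of cullin ubiquitin ligases, read 13.27, 13.17, 13.03 and 12.88 against 12.27, 12.15, 12.38 and 12.26 (-0.82 ± 0.10, adjusted p = 0.00101). Ep300, encoding the histone acetyltransferase p300, closed the run with readings of 10.91, 11.10, 10.99 and 10.94 against 9.98, 9.95, 9.88 and 9.86 (-1.07 ± 0.08, adjusted p = 4.01e-05). In each of the 5 genes every TgUmodC147W array was below every TgUmodwt array, as was so for 7.67% of all genes.

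The detected genes on either side did not pass the test at 2 months. Before the run lay Adsl (-0.03 ± 0.11, adjusted p = 0.923) and Sgsm3 (0.14 ± 0.12, adjusted p = 0.551), and after it L3mbtl2 (-0.17 ± 0.09, adjusted p = 0.31) and Rangap1 (0.11 ± 0.09, adjusted p = 0.546). The same 5 genes were lowered in females of 1 month, by -1.44, -1.03, -1.18, -0.79 and -0.96 in chromosomal order. They were also lowered in males of 1 month, where 15.6% of genes were, by -1.24, -1.16, -1.06, -0.79 and -0.70. These groups have control arrays of their own. L3mbtl2 was lowered in the mice of 1 month of both sexes (-0.60 and -0.46). Whether the place of the transgene or the strain background bears on this stretch was not tested.

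**Figure D4:**
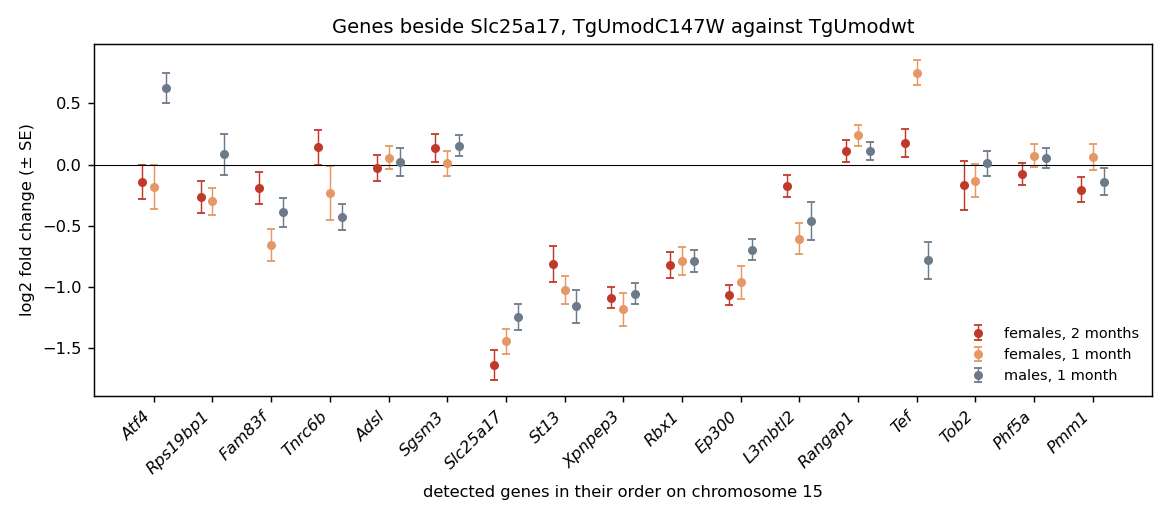
Log2 fold change (± SE, n = 4 mice a group) of the detected genes around Slc25a17 in their order on chromosome 15, for females of 2 months, females of 1 month and males of 1 month, each against its own TgUmodwt arrays. The 5 genes from Slc25a17 to Ep300 lie at -0.70 or below in all 3 comparisons, and the genes next to Slc25a17 on the other side, Sgsm3 and Adsl, lie near 0. Atf4 is on the same stretch, 6 detected genes before Slc25a17.

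Genes of amino acid, fatty acid and drug metabolism were lowered more often than raised. Of 63 detected genes of amino acid breakdown and synthesis 10 were lowered and 3 raised, with a median of -0.23. Of 37 cytochrome P450 and phase II genes 8 were lowered and 1 raised (median -0.27), and of 49 peroxisomal genes 5 were lowered and none raised (median -0.14). Of 35 genes of mitochondrial fatty acid oxidation and ketone bodies 7 were lowered and none raised (median -0.17). Of 37 respiratory chain and ATP synthase genes none passed the test (median 0.01). On the list of cholesterol and fatty acid synthesis 4 of 24 detected genes were raised and none lowered (median 0.14), and 1 raised without TgUmodC147W replicate 3 or with arrays scaled to a common median. The mean level of the proximal tubule list, the segment where most of these enzymes are expressed, was 12.05 to 12.17 on TgUmodwt arrays. It was 12.05, 12.18, 11.95 and 11.96 in TgUmodC147W replicates 1 to 4, so replicate 2 was the highest of the 8 arrays. On that list 12 of 52 genes were lower without overlap (7.67% of all genes were) and 2 were higher (8.53%). Whether the level of that segment bears on the lowered enzymes was not tested. With arrays scaled to a common median the lowered counts were 16, 12, 10 and 8 in the order of the first 4 of these lists, and the medians -0.35, -0.37, -0.27 and -0.29. Leaving out TgUmodC147W replicate 3 gave 6, 5, 3 and 3 lowered genes.

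Cyp2e1, a cytochrome P450 that oxidizes ethanol and ketones, read 11.33, 12.54, 11.13 and 11.62 in TgUmodwt and 10.08, 10.49, 9.92 and 9.74 in TgUmodC147W. The 3.03-fold fall was not accompanied by overlap, although TgUmodwt replicate 2 stood about 1 unit above its group (-1.60 ± 0.27, adjusted p = 0.00556). Hpd, an enzyme of tyrosine breakdown, fell by 1.69 on the log2 scale (SE 0.38, adjusted p = 0.0227), with TgUmodwt replicate 2 highest at 11.10 and TgUmodC147W replicate 2 lowest at 7.29, and the call was lost in 3 alternatives that kept all arrays. Cyp2d9 fell by 1.42 (SE 0.25, adjusted p = 0.00693) and Ces1d, a carboxylesterase, by 0.99 (SE 0.17, adjusted p = 0.0056).

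Among amino acid enzymes, Dmgdh of choline breakdown fell by 0.76 (SE 0.14, adjusted p = 0.00826) and Ftcd of histidine breakdown by 0.71 (SE 0.12, adjusted p = 0.00555), while Arg2, mitochondrial arginase, rose by 0.68 ± 0.13 (adjusted p = 0.0118). Arg2 missed the threshold with arrays scaled to a common median. Hacl1, which shortens branched fatty acids in peroxisomes, fell by 0.84 (SE 0.16, adjusted p = 0.00906), and Slc25a20, the mitochondrial carnitine carrier, by 0.45 (SE 0.09, adjusted p = 0.0131). Slc22a8, an organic anion transporter of the proximal tubule, fell by 0.54 (SE 0.09, adjusted p = 0.00652). Acox3 (-0.31 ± 0.12, adjusted p = 0.176) and Ehhadh (-0.25 ± 0.23, adjusted p = 0.587), enzymes of peroxisomal oxidation, did not pass the test. The probes of the dicarboxylate transporter Slc13a3 disagreed: the brightest did not pass (-0.25 ± 0.12, adjusted p = 0.25), while the other two were lowered (-0.53 ± 0.11, adjusted p = 0.0158, and -0.57 ± 0.13, adjusted p = 0.0196).

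Acyl-CoA thioesterases, which release free fatty acids from coenzyme A, held a further run of lowered neighbours, on chromosome 12. Acot3, Acot4 and Acot6 were named after this run was seen. In chromosomal order Acot2 fell by 0.56 (SE 0.11, adjusted p = 0.0135), Acot1 by 0.57 (SE 0.11, adjusted p = 0.009), Acot4 by 0.49 (SE 0.10, adjusted p = 0.0162), Acot3 by 0.88 (SE 0.13, adjusted p = 0.00228) and Acot6 by 0.50 (SE 0.12, adjusted p = 0.0322). These paralogs share sequence, so the probes may not measure 5 separate transcripts. Acot4 lost its call without TgUmodC147W replicate 3 or 4, and Acot6 kept its call only without TgUmodC147W replicate 2 when single arrays were left out. Acot12, a thioesterase encoded elsewhere, fell by 0.75 (SE 0.12, adjusted p = 0.00436).

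Red cell genes were lowered. Of 9 detected members of the red cell and heme list 6 fell and none rose, with a median of -0.88. Alas2, the erythroid enzyme that starts the making of heme, read 10.67, 9.80, 10.68 and 10.00 in TgUmodwt and 7.58, 7.47, 8.75 and 8.99 in TgUmodC147W, a 4.26-fold fall without overlap (-2.09 ± 0.34, adjusted p = 0.00485). Hbb-b2, a beta globin, read 11.19, 10.48, 11.38 and 10.75 against 9.01, 9.40, 9.77 and 9.96 (-1.42 ± 0.23, adjusted p = 0.00454). Hba-a1, the alpha globin, read 15.98, 15.86, 15.98 and 15.91 against 14.16, 14.31, 15.02 and 15.40 (-1.21 ± 0.23, adjusted p = 0.00945).

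In Alas2 and in all 4 globin genes TgUmodC147W replicates 1 and 2 were the lowest arrays. The TgUmodwt readings of Hba-a1, Hbb-bs and Hbb-bt were near the highest value on the arrays, which can compress their differences. The brightest Hbb-bs probe differed by -1.08 ± 0.22 (adjusted p = 0.0144), while a dimmer probe of the gene, with a mean of 12.56, differed by -1.77 ± 0.28 (adjusted p = 0.00396). Hbb-bt differed by -0.88 ± 0.19 (adjusted p = 0.0194), and globin probes may share targets. Slc4a1, the anion exchanger of red cells and also of intercalated cells, fell by 0.48 (SE 0.10, adjusted p = 0.0173), and like Hbb-bt it lost its call without TgUmodwt replicate 3. Bpgm (-0.04 ± 0.10, adjusted p = 0.872), Fech (-0.17 ± 0.09, adjusted p = 0.294) and Klf1 (-0.30 ± 0.13, adjusted p = 0.211) did not pass the test. Whether blood left in the kidneys differed between the groups was not tested. In females of 1 month 1 of the 9 genes was lowered, and the median was 0.11.

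Cell cycle genes rose, 13 of 27 detected with none lowered and a median of 0.35 (0.20 with undetected groups at the detection limit). Without TgUmodwt replicate 2 or TgUmodC147W replicate 1 the count was 8. Of the 27 genes 5 were detected on no array of 1 group and passed the detection filter through the other group alone. Cdk1, the mitotic kinase, was at least 1.49-fold higher (adjusted p = 0.00146), and Cdc20, an activator of the anaphase-promoting complex, rose by 1.28 ± 0.14 (adjusted p = 0.000298). Uhrf1, which maintains DNA methylation, rose by 1.07 ± 0.14 (adjusted p = 0.0011), and Mcm6, of the replication helicase, by 0.96 ± 0.17 (adjusted p = 0.00758).

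Several of the largest changes fell on secreted or membrane proteins outside the lists of injury and inflammation. Igf2, an insulin-like growth factor, read 11.50, 10.05, 11.99 and 12.33 in TgUmodwt and 14.02, 13.39, 13.61 and 14.27 in TgUmodC147W, a 5.11-fold rise without overlap (2.35 ± 0.41, adjusted p = 0.00605). TgUmodwt mice alone spanned more than 2 units for this gene. Tpbg, an inhibitor of Wnt signalling, read 11.45, 11.19, 11.11 and 11.12 in TgUmodwt and 8.89, 8.65, 8.81 and 8.71 in TgUmodC147W, a 5.48-fold fall (-2.45 ± 0.10, adjusted p = 4.61e-07). Wnt4, a ligand of the same pathway, was at least 1.25-fold higher (adjusted p = 0.00199).

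The serpins Serpina10, an inhibitor of coagulation proteases, and Serpina6, which binds corticosteroids, rose by 2.32 ± 0.23 (adjusted p = 0.000184) and 1.94 ± 0.16 (adjusted p = 7.33e-05). Kif1a, a kinesin of neurons, was at least 2.95-fold higher (adjusted p = 3.71e-06) and Sult4a1, a sulfotransferase of brain, at least 1.22-fold higher (adjusted p = 6.58e-06). Panx1, a channel that releases ATP, rose by 0.70 ± 0.14 (adjusted p = 0.0112). Among the falls, Bdnf, a neurotrophin, differed by -1.48 ± 0.20 (adjusted p = 0.00143), the claudin Cldn11 by -1.31 ± 0.11 (adjusted p = 5.91e-05) and the sulfate transporter Slc13a4 by -1.21 ± 0.24 (adjusted p = 0.0117). Kcne1l, a potassium channel subunit, was at least 2.18-fold lower (adjusted p = 0.000833) and Rtkn2 at least 2.09-fold lower (adjusted p = 0.000961).

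To ask which effects of genotype differed between 1 and 2 months, the interaction of genotype and age was fitted over the 16 female arrays. Before these results, TgUmodC147W replicate 2 of 1 month stood apart: it read 4.85 for Xist, as the 8 male arrays did (4.70 to 5.01), against 11.66 to 12.72 on the other 15 female arrays. For each gene named with an interaction past the test, the adjusted p without this array is given as well. The differences at 1 month and the sizes of the interactions include it. By the brightest probe 82 genes had a positive interaction (0.832%), their difference being higher at 2 months, and 36 a negative interaction (0.365%). Counted by any probe these were 95 (0.937%) and 70 genes (0.69%), or 59 and 32 genes without the array that lacked Xist. Of the 82 genes 76 were lowered at 1 month and 62 of the 82 passed no test at 2 months, while 10 were raised at 2 months. Of the 36 genes 27 were raised at 1 month and 7 were lowered at 2 months.

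Trib3 was the detected member of the ATF4 list with an interaction. Its difference at 1 month was 0.38 (adjusted p = 0.108), and the fitted interaction was 1.20 (adjusted p = 0.00627, and 0.00938 without the array that lacked Xist). Since Trib3 was not detected in TgUmodwt mice of 2 months, the size of the interaction depends on a signal not above background. It passed the test under all 27 alternatives. The other raised members named above did not pass the interaction test, including Chac1, at 0.57 and 1.35, and Atf5, at 0.54 and 1.38.

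Of the red cell list 3 genes had a negative interaction. Alas2 differed by 0.29 at 1 month and -2.09 at 2 months (interaction -2.38, adjusted p = 0.0289), Hbb-b2 by 0.28 and -1.42 (interaction -1.70, adjusted p = 0.0207), and Hba-a1 by 0.10 and -1.21 (interaction -1.31, adjusted p = 0.0303). Without the array that lacked Xist the adjusted p was 0.066 for Alas2, 0.0434 for Hbb-b2 and 0.0657 for Hba-a1. Rtkn2 differed by 0.08 at 1 month, and its fitted interaction was -1.68 (adjusted p = 0.0207, and 0.0439 without that array), a size that rests on TgUmodC147W signals not above background at 2 months.

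The largest positive interactions belonged to genes that were much lower in the mutant kidneys at 1 month and did not pass the test at 2 months. Sec14l3, a lipid-binding protein, differed by -5.15 at 1 month and -0.19 at 2 months, and Ly6f, a GPI-anchored protein, by -5.12 and -0.39. Scgb1c1, a secretoglobin, differed by -3.51 and 0.43, Ces1f, a carboxylesterase, by -3.80 and 0.00, and Cyp2a4, a steroid hydroxylase, by -3.00 and 0.39. Scd1, the stearoyl-CoA desaturase, was lowered by -2.02 at 1 month and was 0.53 ± 0.14 higher at 2 months, where its groups overlapped and its call was lost without 6 of the 8 arrays in turn (all but TgUmodwt replicate 3 and TgUmodC147W replicate 1). Without the array that lacked Xist the adjusted p of the interaction was 0.00811 for Sec14l3, 0.000983 for Ly6f, 0.00961 for Scgb1c1, 0.0424 for Ces1f, 0.029 for Cyp2a4 and 0.00368 for Scd1. Serpina6 and Serpina10 were raised at both ages, by 3.87 and 4.39 at 1 month, and their interactions were negative, with adjusted p = 0.0143 and 0.0939 without that array. Circadian clock genes, 15 detected, held 9 rises and 2 falls at 1 month, against no rise and 2 falls at 2 months. The 16 detected androgen-induced and sex-dependent genes held 1 rise and 7 falls at 1 month, against 1 rise and 2 falls at 2 months. At 1 month 9.84% of all genes were raised and 7.71% lowered. Whether these shifts bear on the interactions was not tested.

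**Figure D5:**
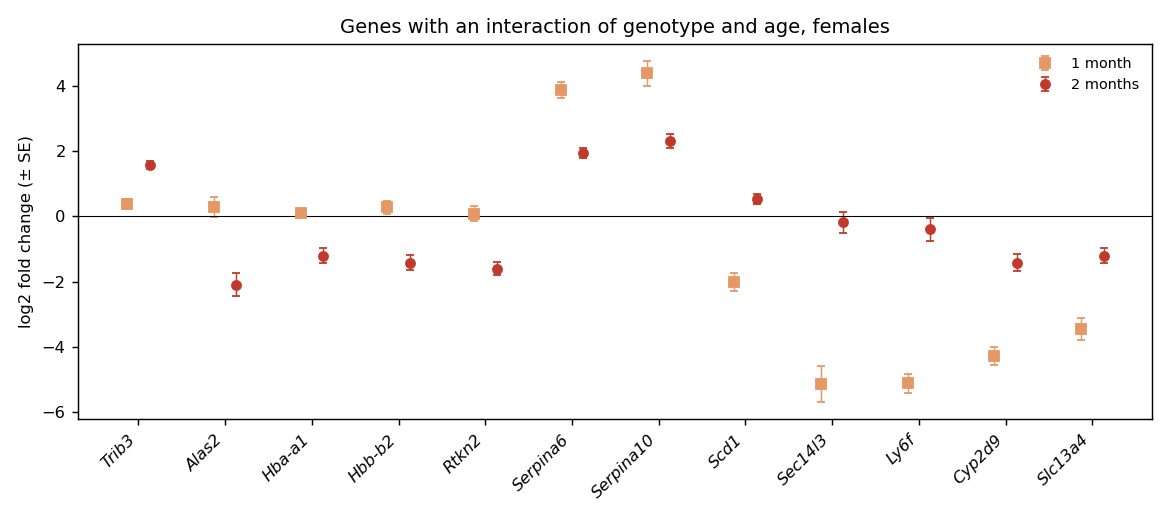
Log2 fold change (± SE) of 12 genes with an interaction of genotype and age, at 1 month (squares) and 2 months (circles), each against TgUmodwt females of the same age (n = 4 a group). Trib3 and the red cell genes Alas2, Hba-a1 and Hbb-b2 lie near 0 at 1 month and away from it at 2 months, while Sec14l3 and Ly6f lie below -5 at 1 month and near 0 at 2 months. Trib3 and Rtkn2 were each undetected in 1 group of 2 months and are drawn at their fitted values.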

How the data were processed

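Probe intensity and detection p-value for each array were deposited by the authors as a non-normalized export of GenomeStudio, which summarises bead signals per probe and tests each against negative control beads. A table of intensities normalized by the authors in GenomeStudio (cubic spline, per the methods) was used as an alternative. Comparison columns were not used. The probe identifiers of the deposited tables disagreed for 13666 of 45281 probes, or 30.2%, so the tables were matched by signal ranks and a probe was named only where both identifiers gave the same gene (34043 probes, 18747 genes). Of the tested probes 2984 stayed unnamed. Gene order and promoter sequences came from RefSeq tables of GRCm38.p6.

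Intensities of the 24 arrays were background-corrected with neqc (offset 16), quantile-normalized and put on the log2 scale. The 18302 probes with detection p-value under 0.01 on at least 1 of the 8 arrays were fitted with limma 3.58.1 (lmFit, eBayes) in R 4.3.3, without covariates, and adjusted by Benjamini-Hochberg. Statmod 1.5.0, Python 3.11.15, pandas 2.3.3 and matplotlib 3.10.9 were also used. Interactions were fitted over 16 arrays. A list's members were counted by their brightest detected probe. Counts and mean levels of a list include members detected on no array of 1 group, at their signals. No gene had probes called in both directions. The p-values weigh the difference between groups of 4 mice against the spread between mice, with each probe's variance moderated by limma over all tested probes. The number of arrays limits precision. The BeadChip that held each array is not given in the sources used here, so it was not tested as a batch.

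The members and gene lists were chosen with earlier results of these data known. Genes named were taken from the 15 largest rises and 15 largest falls without overlap, up to 4 members of each list with the largest changes past the test (or the 2 brightest), genes named in the study, and the 5 largest interactions in each direction. Outside this rule, chosen after their values were seen, were Acot3, Acot4, Acot6, Adgre1, Adsl, Aldh18a1, Aqp2, Atf4, Bpgm, Cd44, Cdkn1a, Chac1, Cldn16, Csf1r, Cxcl1, Cxcl10, Ddit3, Ecm1, Eif4ebp1, Ep300, Fech, Folr2, Hbb-bt, Hsp90b1, Hspa5, Irf1, Klf1, Krt18, L3mbtl2, Lrp2, Pdgfrb, Rangap1, Rbx1, Sgsm3, Shmt2, Slc12a1, Slc34a1, Sox9, St13, Xbp1 and Xpnpep3. On simulated data over the same 18302 probes, with 50 probes changed at each size, 54% of 1.5-fold, 98% of 2.5-fold and 100% of 4-fold and 8-fold changes were recovered. The simulated noise was normal and independent between probes, with SDs taken from these arrays. A smaller share of probes was changed than was called in the data, so the rates hold for that setting only. Alternatives were no background correction, a common median, the authors' table, an offset of 50, other detection filters, other variance models, mean probes, a replicate block and leaving out each array.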

Additional observations from a re-analysis of the deposited data

Results flagged for a closer look

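For 19 of the 139 genes named, the effect of genotype differed between females of 1 and 2 months by the interaction test of limma, adjusted over all probes (differences in log2 units, 2 months minus 1 month). Of these, 14 also passed without the 1-month TgUmodC147W array that lacked Xist, and 8 passed under every alternative run. The positive interactions were 4.97 for Sec14l3 (adjusted p = 0.00293), 4.73 for Ly6f (adjusted p = 0.000218), 3.94 for Scgb1c1 (adjusted p = 0.00334), 3.80 for Ces1f (adjusted p = 0.0182) and 3.39 for Cyp2a4 (adjusted p = 0.0111). They were 2.86 for Cyp2d9 (adjusted p = 0.00334, and 0.00813 without that array), 2.55 for Scd1 (adjusted p = 0.00118), 2.26 for Slc13a4 (adjusted p = 0.0251, and 0.0495 without that array), 1.29 for Ftcd (adjusted p = 0.0242, and 0.0421 without it) and a fitted 1.20 for Trib3 (adjusted p = 0.00627). Acot12 at 0.92 (adjusted p = 0.0462) and Cdc20 at 0.88 (adjusted p = 0.0486) missed the threshold without that array, at adjusted p = 0.0904 and 0.0886.

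The negative interactions were -2.38 for Alas2 (adjusted p = 0.0289), -2.07 for Serpina10 (adjusted p = 0.0461, and 0.0939 without that array), a fitted -1.94 for Cyp27b1 (adjusted p = 0.0326, and 0.0213 without it) and -1.93 for Serpina6 (adjusted p = 0.00593, and 0.0143 without it). They were -1.70 for Hbb-b2 (adjusted p = 0.0207), a fitted -1.68 for Rtkn2 (adjusted p = 0.0207) and -1.31 for Hba-a1 (adjusted p = 0.0303). Cyp27b1, the enzyme that activates vitamin D, was detected on 1 TgUmodwt array and no TgUmodC147W array at 2 months, so no fold is given for that age and the size of its interaction rests on signals not above background.

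In 14 of 278 groups of 4 arrays, counted over the named genes, 1 array stood far from the other 3, where chance flags about 1 in 20 groups. The gap between that array and the nearest other, as a share of the group's range, was as follows in TgUmodwt mice of 2 months: 0.864 for Fcrls, 0.890 for Aldh18a1, 0.833 for Mcm6, 0.938 for Ces1f, 0.903 for Ddit3, 0.843 for Acot4 and 0.924 for St13. In TgUmodC147W mice of 2 months it was 0.915 for Mfap5, 0.917 for C1qb, 0.858 for Vcam1, 0.923 for Ifitm1, 0.918 for Cyp2a4, 0.922 for Slc13a4 and 0.941 for Kcne1l.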

How the results depend on the processing

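Of 2913 alternative fits of the 139 genes named, 2809 kept their direction and side of the threshold, 77 lost the call, 27 gained it and none reversed, and 89 of the 106 genes past the test passed under every alternative run. The counts moved more. Without 1 array of the 8, 366 to 584 genes were raised and 210 to 465 lowered. The lowest were without TgUmodC147W replicate 3 (366 and 210) and TgUmodwt replicate 2 (380 and 216), and 242 and 247 were lowered without TgUmodwt replicate 3 and TgUmodC147W replicate 4. Over 2-fold, 83 to 108 genes were raised and 26 to 36 lowered. Without background correction, and in the authors' table, 26 genes were raised and 12 lowered over 2-fold, and an offset of 50 gave 56 raised, since a larger floor compresses the folds of dim probes. Counted by any probe, 95 interactions were positive and 70 negative, against 55 positive with a common median and 42 and 26 with no filter on dim probes, where more probes were tested. Without 1 of the 16 arrays they ranged from 48 to 227 and from 26 to 132, with 227 and 132 without 1-month TgUmodC147W replicate 4 and 59 and 32 without its replicate 2, which lacked Xist; the cause was not tested. Deviations of same-numbered mice had correlations of 0.13, -0.08, -0.09 and 0.29, too few values to settle whether the numbers pair the mice. The replicate block gave 519 raised and 337 lowered genes and 81 and 47 interactions. The call of Hpd was lost with no filter on dim probes, a trended and robust prior, and the replicate block. Dim genes have bounds instead of folds, and signals near 16.02 can hide differences.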

Other observations

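Other unbroken runs of called genes, in the order of detected genes along a chromosome, were the raised C1qb, C1qc, C1qa and Wnt4 on chromosome 4 and the raised Nipal3, Stpg1 and Ifnlr1 on the same chromosome. The lowered runs were Cyp4a12a, Cyp4a14 and Cyp4a31 on chromosome 4, and Cyp2d22, Cyp2d10 and Cyp2d9 on chromosome 15. The cytochrome P450 runs are families of near-identical paralogs, whose probes may share targets. These runs were looked for after the run at Slc25a17 had been seen.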
